A study of Mus musculus with 16 samples.

Results

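STAT5 is a transcription factor that cytokine receptors switch on, and 9 genes were followed here that either encode it or are among its best-known targets. They were chosen by name: the suppressor of cytokine signalling genes Socs1, Socs2, Socs3 and Cish, the kinase genes Pim1, Pim2 and Pim3, and the STAT5 genes Stat5a and Stat5b. All 9 stood in the deposited table of 21936 genes, and all 9 were among the 12093 genes with enough counts to test. The choice rests on their names and known roles, made with earlier results of these data known.

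The RNA came from osteoclast cultures, in which bone marrow cells carrying CD11b, from mice of the C57BL/6J background, were kept in the growth factor M-CSF (50 ng/ml) for 3 days and then given RANKL (20 ng/ml), the cytokine that drives osteoclast formation. There were 16 libraries, 4 for each of 4 genotypes: wild type (WT), Ptprc KO, FLT3 ITD, and their combination FLT3 ITD Ptprc KO, called double mutant from here on. FLT3 ITD cells carry, knocked into Flt3, an internal tandem duplication that keeps the receptor active without its ligand, and Ptprc KO removes CD45, a phosphatase of blood cells. The labels give all cultures the same cytokines. They also mention a FLT3 inhibitor that they assign to no sample, and the design text states more samples in total than its groups add up to. The labels give neither zygosity, nor the animals' age, nor the animal behind each replicate, and the p-values speak of the spread among these cultures only, which may be technical. The day of RNA collection, between day 3 and day 5, was not stated for each culture.

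An active cytokine receptor lets Janus kinases phosphorylate STAT proteins, which move to the nucleus and bind DNA at sites of the form TTCNNNGAA. SOCS proteins and CISH are made in answer and damp the same receptors, while PIM kinases are made in answer and promote survival and growth. FLT3 ITD is known, in leukaemia cells, for activating STAT5 and with it Cish, the SOCS genes and the PIM kinases, and in osteoclast cultures STAT5 is known as a restraint on differentiation.

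Start-site sequence was compared for the genes because the STAT form TTCNNNGAA is the feature that ties these targets together. RefSeq windows of build GRCm38.p6, reaching from 250 bases before a gene's start to 50 after it, were matched for 8 of the 9 genes, Socs2 being the exception. Cish and Socs3 were the 2 genes of these 8 with a match in any of their windows, where 9.55% of all genes (2582 of 27025) and 8.3% of all windows (2726 of 32851) had one. The form reads the same on both strands, and its matches in 1 window could overlap. Cish held 2 matches, at bases 1 and 12 from the RefSeq start, and 0.457% of all windows held 2 or more. Socs3 held 1, starting 154 bases before the RefSeq start. The stretches that hold these matches are given below, 5′ to 3′ on the strand of the gene, with the matches in capitals. For Cish this is chr9:107296654-107296683 on the plus strand, which the GENCODE annotation places in the untranslated part of an exon of a longer transcript. For Socs3 it is chr11:117969501-117969530 on the minus strand, in an intron of a longer GENCODE transcript.
Cish: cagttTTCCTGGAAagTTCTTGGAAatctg
Socs3: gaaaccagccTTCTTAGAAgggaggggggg
These are letters in a window, not measured binding sites, and Pearson's r between Cish and Socs3 over the 16 libraries was −0.38 in log2 CPM, given as a description.

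Library totals ran from 24211724 to 35773313 counts. Ptprc itself checked the knockout label: its level, as counts scaled to library size (CPM), was 454 ± 28.5 in WT, 38.7 ± 6.45 in Ptprc KO, 401 ± 129 in FLT3 ITD, and the double mutant had 64.8 ± 15.3 (SD, n = 4 each). Flt3 had between 0.0306 and 1.42 CPM per library, and a gene count does not show the duplication, so the FLT3 label could not be checked. The 10 osteoclast markers, among them Ctsk, Acp5 and Calcr, were all detected, at summed levels of 29300 to 37900 CPM in WT, 24900 to 64400 in Ptprc KO, 15900 to 55500 in FLT3 ITD, with 8450 to 46300 for the double mutant. FLT3 ITD replicates 1 and 3 were closer to each other than any other pair of replicates, with a chi-square of 2.77 per gene where the pair next in closeness had 13. Replicate 2 of FLT3 ITD differed from the other libraries in a trend of its counts with gene length (Spearman's rho across genes −0.46, against −0.181 to 0.181 elsewhere). The values with replicates 1 and 3 summed and replicate 2 left out, a setting added after the data were seen, are given after the single genes.

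On the TPM scale, in which transcript counts are divided by gene length and library total, Pim3 had the highest level and Cish the lowest. The median TPM over the 16 libraries was 37.1 for Pim3, 17.8 for Stat5b, 14.1 for Pim1, 10.4 for Stat5a and 6.44 for Socs3. It was 2.59 for Socs1, 1.91 for Pim2, 0.733 for Socs2 and 0.322 for Cish. Pim3 stood above Stat5b in 16 of 16 libraries, Socs3 above Socs1 in 15, Pim2 above Socs2 in 14, Socs2 above Cish in 14, and Pim1 above Stat5a in 12. Neighbours whose order was not kept were Stat5b and Pim1, Stat5a and Socs3, and Socs1 and Pim2, each in the order of the medians in 10 of 16 libraries. The TPM order depends on the gene lengths used, such as 9531 bases for Socs2, 2908 for Socs1 and 2795 for Pim2. In mean CPM, not divided by length, Socs2 (2.49) stood above Socs1 (2.23) and Pim2 (1.47), and Stat5b (29.1) above Pim3 (26.9). Cish was lowest there too (0.666). TPM recomputed from the counts was 0.703 to 1.26 times the deposited TPM. Whether these lengths match the transcripts made in the cultures was not tested.

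**Figure D1:**
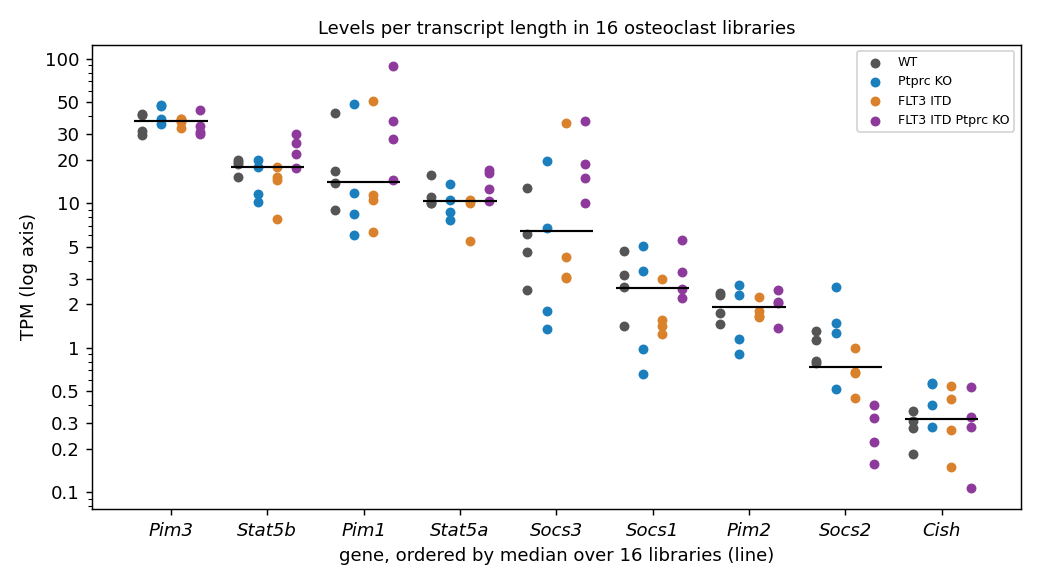
TPM of each of the 9 genes in the 16 libraries (log axis), 1 point per library coloured by genotype, with genes in order of their median (line). Pim3 has the highest median with a narrow spread, Socs3 and Pim1 spread widely, and Cish and Socs2 lie mostly under 1 TPM.

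The genes differed widely in how much they varied between libraries. The highest library exceeded the lowest by 22.4-fold in CPM for Socs3, 16.7-fold for Socs2 and 14.9-fold for Pim1. The same ratio was 5.92 for Cish, 5.76 for Socs1, 3.04 for Stat5b, 2.42 for Pim2, 2.39 for Stat5a and 1.74 for Pim3.

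Socs2, whose product restrains growth hormone and cytokine receptors, had its lowest levels in the double mutant. The gene lies at chr10:95385362-95417180 on the minus strand (GRCm38). Replicates 1 to 4 of the double mutant had 0.398, 0.657, 0.944 and 0.9 CPM of Socs2, from 13, 19, 29 and 30 counts. WT had 3.8, 2.86, 2.23 and 2.17 CPM, Ptprc KO had 3.28, 6.66, 4.84 and 1.75, and FLT3 ITD had 1.91, 3.99, 1.94 and 1.5. All 4 double-mutant libraries therefore lay below all 12 others, a pattern that 64 of the 12093 genes tested showed (0.529%). Group means were 2.77 ± 0.759 in WT, 4.13 ± 2.1 in Ptprc KO, 2.33 ± 1.12 in FLT3 ITD, with 0.725 ± 0.252 for the double mutant (SD, n = 4 each).

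By edgeR's quasi-likelihood test with Benjamini-Hochberg adjustment over all 12093 genes, Socs2 came close to the threshold of 0.05 and did not pass it. Against Ptprc KO the double mutant had a log2 fold change of −2.50 (SE 0.44), 5.66-fold lower, with an adjusted p of 0.0529 by edgeR. Against FLT3 ITD the log2 fold change was −1.68 (SE 0.43), 3.2-fold lower, with an edgeR adjusted p of 0.105. Against WT it was −1.93 (SE 0.44), 3.8-fold lower, with an edgeR adjusted p of 0.12. These 3 comparisons share the double-mutant libraries and are not independent of each other. The single changes left Socs2 with log2 fold changes of −0.25 (SE 0.42) for FLT3 ITD against WT and 0.57 (SE 0.41) for Ptprc KO against WT, both inside the spread between replicates. The interaction, which asks whether the double mutant departs from the sum of both single changes on the log2 scale, was −2.25 (SE 0.60, edgeR adjusted p 0.245).

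How the Socs2 difference was called depended on the method and on single libraries. DESeq2 called it against Ptprc KO (log2 fold change −2.53, adjusted p 8.7e-06), against FLT3 ITD (adjusted p 0.00948), against WT (−1.95, adjusted p 0.00254) and for the interaction (−2.29, adjusted p 0.0306). With edgeR, the comparison with Ptprc KO passed in 4 of 16 fits that left out 1 library each: Ptprc KO replicate 4 (−2.76, adjusted p 0.0224), FLT3 ITD replicate 2 (−2.5, adjusted p 0.0356), FLT3 ITD replicate 4 (−2.5, adjusted p 0.0271) and double-mutant replicate 3 (−2.65, adjusted p 0.0187). Over 24 alternatives the adjusted p for that comparison ran from 8.7e-06 to 0.242, and it was under the threshold in 7. With FLT3 ITD replicates 1 and 3 summed and replicate 2 left out, the difference from FLT3 ITD was −1.24 with an edgeR adjusted p of 0.555.

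Across the cultures of all genotypes, Socs2 was higher where osteoclast markers were higher (r = 0.84 over 15 samples, tested below). Within genotypes, with each group's mean removed, r was 0.62 and did not pass (adjusted exact permutation p 0.0587). The mean log2 CPM of the 10 osteoclast markers was 7.6, 7.66, 9.8 and 7.31 in double-mutant replicates 1 to 4, and 9.55 to 9.83 in WT. On this scale double-mutant replicate 3 lay within the WT range, and on summed CPM, at 46300, above the WT range of 29300 to 37900, while its 0.944 CPM of Socs2 lay below the lowest WT library. In bulk RNA, fewer cells of a type and less RNA per cell cannot be told apart, and the part of the cultures' osteoclast content in the Socs2 difference was not tested.

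**Figure D2:**
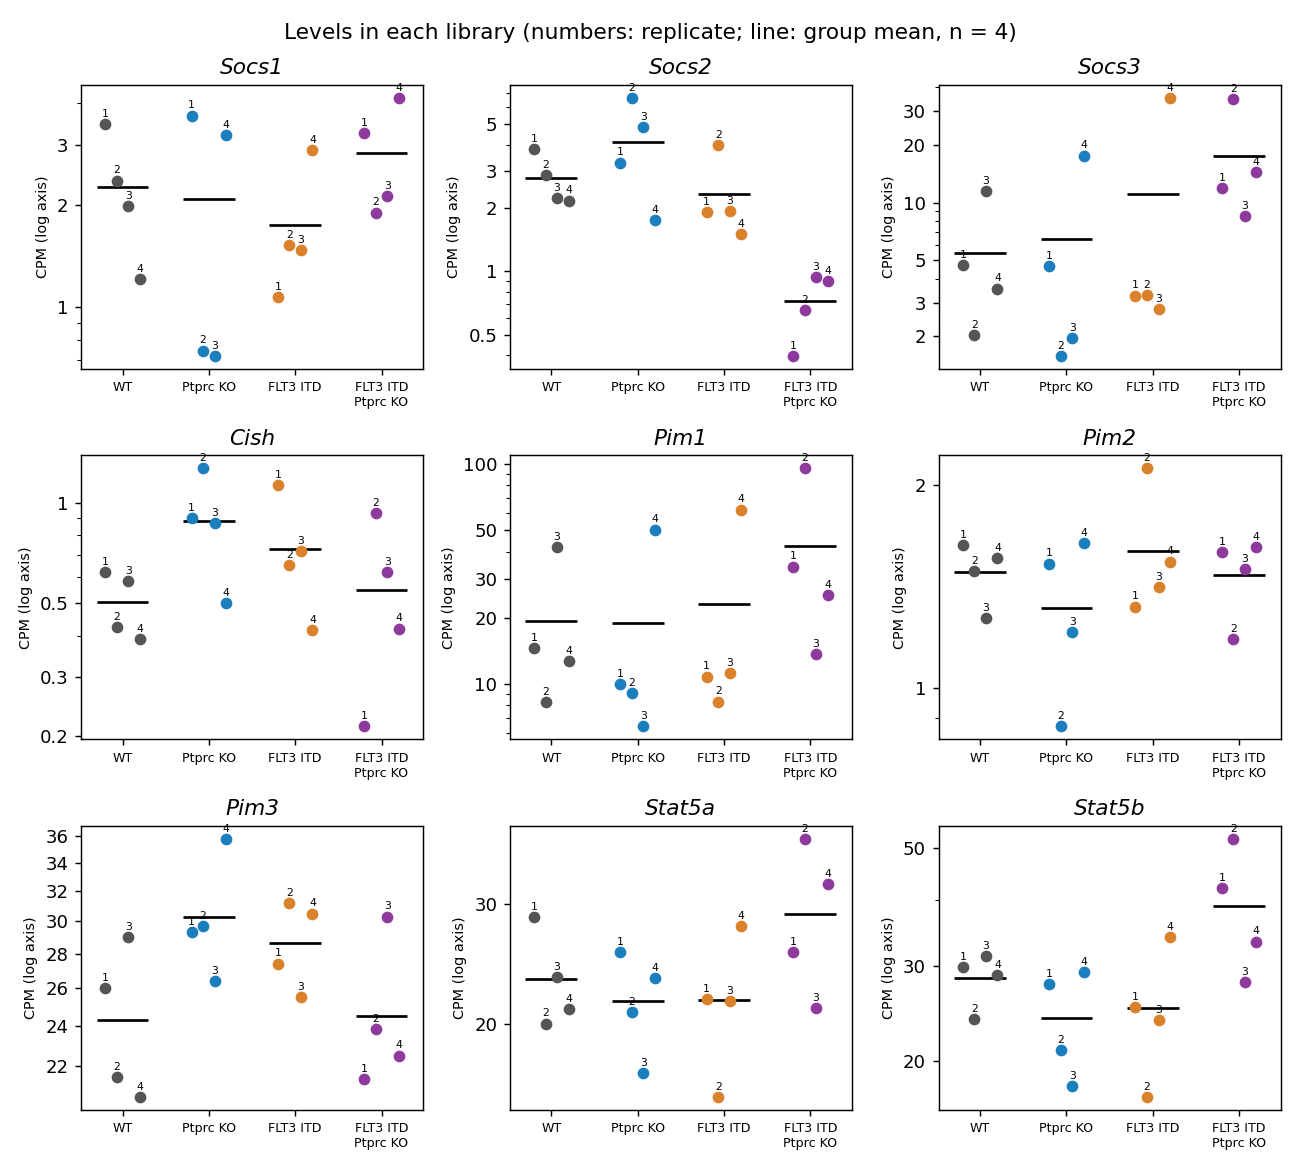
CPM of each of the 9 genes by genotype, 1 panel per gene on a log axis, with points for the 4 libraries, numbered by replicate, and a line at the mean. The 4 double-mutant points for Socs2 (0.398 to 0.944) lie under all others, and Socs3 and Pim1 have high single libraries in WT, Ptprc KO and FLT3 ITD.

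Socs3, which blocks signalling from gp130-type and related receptors, varied from culture to culture within every genotype. It lies at chr11:117966079-117970047 on the minus strand. WT replicates 1 to 4 had 4.7, 2.02, 11.5 and 3.55 CPM of Socs3, and Ptprc KO had 4.66, 1.58, 1.96 and 17.6. FLT3 ITD had 3.26, 3.29, 2.78 and 35.3 CPM, and the double mutant 11.9, 34.8, 8.5 and 14.5. A single library stood high in each of WT (replicate 3), Ptprc KO (replicate 4) and FLT3 ITD (replicate 4), and the double mutant's range overlapped that of each other genotype. Means were 5.45 ± 4.21, 6.44 ± 7.55, 11.2 ± 16.1 and 17.4 ± 11.8 CPM (SD, n = 4 each, in the same order). The largest fitted difference was that between double mutant and WT, at a log2 fold change of 1.68 (SE 0.95, edgeR adjusted p 0.601). Against FLT3 ITD it was 0.65 (SE 0.93), and 2.48 without FLT3 ITD replicate 4, with an edgeR adjusted p of 0.0586.

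Pim1, a survival kinase, was high in the same libraries as Socs3. It lies at chr17:29490753-29496112 on the plus strand, with an antisense gene on the other. Pim1 had 14.6, 8.25, 42.0 and 12.7 CPM in WT, 10.0, 9.06, 6.42 and 50.4 in Ptprc KO, 10.8, 8.32, 11.2 and 62.1 in FLT3 ITD, and 34.2, 95.7, 13.7 and 25.4 in the double mutant. Genotype means were 19.4 ± 15.3, 19.0 ± 21.0, 23.1 ± 26.0 and 42.2 ± 36.6 CPM (SD, n = 4 each), so each SD was of the order of the mean. Double mutant against Ptprc KO gave a log2 fold change of 1.15 (SE 0.85) with an edgeR adjusted p of 0.439. Single libraries moved both genes in the single mutants: FLT3 ITD against WT was 0.25 for Pim1 and 1.03 for Socs3, and −0.94 and −0.81 without FLT3 ITD replicate 4. Ptprc KO against WT was 0.24 for Socs3 and −0.98 without Ptprc KO replicate 4. For Pim1 that comparison was −0.03, and −1.19 without Ptprc KO replicate 4, but 0.68 without WT replicate 3 and 0.18, 0.2 and 0.26 without Ptprc KO replicates 1, 2 and 3.

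Across the 16 libraries Pearson's r of log2 CPM between Socs3 and Pim1 was 0.95, and 0.94 after each genotype's mean was removed. These are descriptions over libraries that share a genotype, not tests. In every genotype the library with the most Socs3 was also the one with the highest mean log2 CPM of the 10 macrophage markers: 8.56 in WT replicate 3, 8.63 in Ptprc KO replicate 4, 8.82 in FLT3 ITD replicate 4 and 8.86 in double-mutant replicate 2. All 10 macrophage markers were detected, and their summed level ran from 2900 to 6680 CPM in WT, 2680 to 7000 in Ptprc KO, 2920 to 8030 in FLT3 ITD, with 2730 to 8560 for the double mutant. Neutrophil markers, summed, reached 91.6 CPM in WT, 186 in Ptprc KO, 107 in FLT3 ITD, with 12.7 for the double mutant, with Ly6g at 0 in WT and the double mutant. The same 4 libraries also had the most erythroid and megakaryocyte markers of their genotype, at 156 CPM in WT, 300 in Ptprc KO, 240 in FLT3 ITD and 161 for the double mutant, with Gp9 at 0 in every genotype, Hbb-bt at 0 in all but the double mutant, and Hba-a1 at 0 in Ptprc KO and the double mutant. Their mean log2 CPM of 10 cell cycle genes was the lowest of their genotype, at 5.38, 4.92, 3.1 and 4.89 in that order. The part of these cell types and of the cell cycle in the Socs3 and Pim1 values was not tested.

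Socs1 (chr16:10782240-10785536, minus strand), the suppressor best known for limiting interferon signals, was low and did not separate by genotype. Its libraries ran from 1.21 to 3.46 CPM in WT, 0.718 to 3.67 in Ptprc KO, 1.07 to 2.91 in FLT3 ITD, with 1.9 to 4.14 for the double mutant. All 4 ranges overlapped. The widest fitted difference between genotypes for Socs1 was 0.72 (SE 0.54, edgeR adjusted p 0.391) on the log2 scale, between double mutant and FLT3 ITD.

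Cish, a classical readout of STAT5 activity and the gene with 2 STAT-type matches at its start, was near the limit of counting, with 7 to 36 counts per library. WT had 0.622, 0.424, 0.584 and 0.391 CPM of Cish, Ptprc KO 0.902, 1.27, 0.869 and 0.5, FLT3 ITD 1.13, 0.65, 0.719 and 0.416, and the double mutant 0.214, 0.934, 0.619 and 0.42. Every group's range overlapped that of WT. FLT3 ITD against WT gave a log2 fold change of 0.53 (SE 0.44, edgeR adjusted p 0.699). Ptprc KO against WT gave 0.80 (SE 0.44) with an edgeR adjusted p of 1. A pseudogene and an antisense gene overlap Cish on the other strand, and the sources used here do not say whether the authors counted by strand, so its reads cannot be assigned with certainty.

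Pim2 (chrX:7878262-7883432, plus strand) and Pim3 (chr15:88862186-88865726, plus strand), the other PIM kinases, had narrow ranges across the cultures. Pim2 had means of 1.49 ± 0.154 CPM in WT, 1.32 ± 0.346 in Ptprc KO, 1.6 ± 0.363 in FLT3 ITD, and 1.47 ± 0.204 for the double mutant (SD, n = 4 each), and its largest fitted difference was −0.17 (SE 0.25) on the log2 scale. Pim3 had means of 24.3 ± 3.96, 30.3 ± 3.93, 28.7 ± 2.65 and 24.5 ± 3.96 CPM in the same order. Ptprc KO against WT was 0.32 (SE 0.15) for Pim3 with an unadjusted p of 0.0486 and an adjusted p of 1 by edgeR, and the interaction was −0.55 (SE 0.21, edgeR adjusted p 0.264). The single mutants thus had somewhat higher Pim3 means than WT and the double mutant, by less than the test could separate over all genes.

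Stat5a and Stat5b, the transcription factor's own genes, had their highest means in the double mutant. Stat5b had 29.9, 23.9, 31.4 and 28.9 CPM in WT, 27.8, 20.9, 17.9 and 29.3 in Ptprc KO, 25.2, 17.1, 23.8 and 34.1 in FLT3 ITD, and 42.1, 52.0, 28.0 and 33.4 in the double mutant. Replicate 3 of the double mutant lay within the WT range, and FLT3 ITD replicate 4 above the lowest 2 double-mutant libraries. The double mutant's log2 fold change for Stat5b was 0.70 (SE 0.23) against Ptprc KO and 0.63 (SE 0.23) against FLT3 ITD, with unadjusted p of 0.00907 and 0.0156 and adjusted p of 0.228 and 0.136 by edgeR. Without FLT3 ITD replicate 4 the difference from FLT3 ITD was 0.82 with an edgeR adjusted p of 0.0383, in a fit where 1798 genes passed. With FLT3 ITD replicates 1 and 3 summed and replicate 2 left out it was 0.41 with an edgeR adjusted p of 0.658.

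Stat5a lay at 28.7, 20.0, 23.4 and 21.0 CPM in WT, 25.5, 20.8, 16.9 and 23.3 in Ptprc KO, 21.7, 15.6, 21.6 and 27.8 in FLT3 ITD, and 25.5, 37.4, 21.1 and 32.1 in the double mutant. The double mutant's range overlapped each of the others. Its log2 fold change was 0.43 (SE 0.21, edgeR adjusted p 0.291) against Ptprc KO and 0.42 (SE 0.21, edgeR adjusted p 0.213) against FLT3 ITD. The genes neighbour each other on chromosome 11 (Stat5b at chr11:100780731-100850724 on the minus strand, Stat5a at chr11:100859351-100885169 on the plus strand), and 608 stretches of 50 bases occur in transcripts of both, 14.7% of those of Stat5a and 11.1% of those of Stat5b. Reads from these stretches could be placed with either gene or left uncounted, and the sources used here do not say which. Stat3 overlaps Stat5a on the other strand, so the separate values of Stat5a and Stat5b carry both uncertainties. No other pair among the 9 genes shared a stretch of 50 bases.

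**Figure D3:**
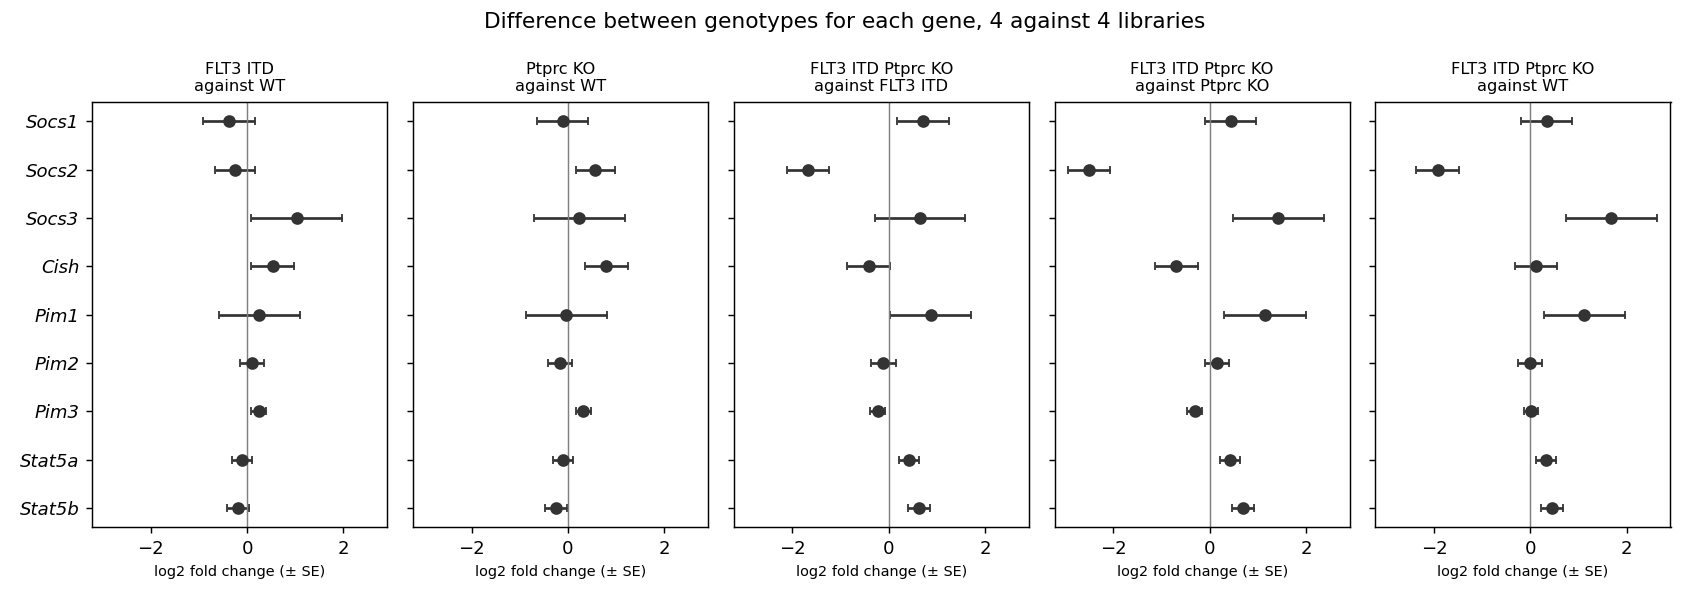
Fitted log2 fold changes of the 9 genes in the 5 comparisons between genotypes, with bars of 1 standard error. Socs2 lies furthest below 0 in the 3 comparisons of the double mutant, and the widest error bars belong to Socs3 and Pim1.

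With FLT3 ITD replicates 1 and 3 summed and replicate 2 left out, the double mutant against FLT3 ITD was 0.21 for Pim1 (0.87 with all libraries), −0.13 for Socs3 (0.65), 0.46 for Socs1 (0.72) and 0.23 for Stat5a (0.42), on the log2 scale. FLT3 ITD against WT was −0.69 for Socs2 (−0.25), 1.81 for Socs3 (1.03), 0.91 for Pim1 (0.25) and −0.12 for Socs1 (−0.38). The FLT3 ITD arm then holds 2 libraries, and no gene of the 9 was called by edgeR in that setting.

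Counted over the comparisons, 0 of the 9 genes passed the edgeR threshold after adjustment over all 12093 genes. For FLT3 ITD against WT, where 0.0413% of all genes passed, 0 of the 9 also had an unadjusted p under 0.05, against 8.45% of all genes. For Ptprc KO against WT (0.0331% of all genes passed) 1 of 9 had an unadjusted p under 0.05, Pim3, against 0.843% of all genes. For the double mutant against FLT3 ITD (0.00827%) there were 2, Socs2 and Stat5b, against 25.7% of all genes. For the double mutant against Ptprc KO (0.091%) they were the same 2 genes, against 17.8%. For the double mutant against WT (0.108%) there was 1, Socs2, against 7.89%. The interaction (0.00827%) had 3, Socs2, Stat5b and Pim3, against 17.5%, and the test for any difference among the genotypes (0.223%) had 2, Socs2 and Stat5b, against 12.5%.

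Other methods gave few calls too. DESeq2 called 1 gene of the 9, Socs2, in each of the 3 double-mutant comparisons, in the interaction and in the test for any difference, and 0 in the other comparisons. Of all genes with a DESeq2 adjusted p, 7.55% were called for the double mutant against FLT3 ITD, 2.5% against Ptprc KO and 0.926% against WT, 1.34% for the interaction and 3.49% for any difference. The shares were 0.389% for FLT3 ITD against WT and 0.0729% for Ptprc KO against WT. limma on log2 TPM did not test Socs2 and Cish, which had too little TPM to enter, and called 0 of the other 7 genes. The TPM of Socs2 and Cish rests on gene lengths of 9531 and 6419 bases. It called 0.0366% of all genes for FLT3 ITD and 0.0183% for Ptprc KO against WT. Its shares were 0.0183%, 0.174% and 0.0824% for the double mutant against FLT3 ITD, Ptprc KO and WT, 0% for the interaction and 0.119% for any difference. Ranges that did not overlap belonged to Socs2 in the 3 double-mutant comparisons, where 3.52% of all genes lay wholly lower than FLT3 ITD, 2.84% wholly lower than Ptprc KO and 2.56% wholly lower than WT. In those comparisons 0 of the 9 lay wholly higher, beside 4.95%, 3.48% and 2.94% of all genes. For FLT3 ITD against WT 0 of the 9 lay wholly higher or lower (2.89% and 3.2% of all genes), and likewise for Ptprc KO against WT (0.786% and 0.62%). None of the 9 genes had all double-mutant libraries above all others, which 0.81% of all genes had.

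The median log2 fold change of the 9 genes, beside that of all genes tested, was 0.1 beside 0.04 for FLT3 ITD against WT and −0.03 beside 0.02 for Ptprc KO against WT. It was 0.42 beside 0.03 for the double mutant against FLT3 ITD, 0.43 beside 0.04 against Ptprc KO and 0.32 beside 0.05 against WT. Of the 9 genes, 5 had a positive value against FLT3 ITD, 6 against Ptprc KO and 7 against WT, where 52.0%, 54.4% and 56.3% of all genes did.

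Other genes of the pathway were read from 5 lists of 58 genes in all, of which 53 could be tested. Ptprc, the deleted gene, was the 1 that passed, lower in Ptprc KO against WT and in the double mutant against FLT3 ITD and against WT (edgeR adjusted p 7e-06, 0.000227 and 0.000104). Unadjusted p under 0.05 were found for 2 of the 53 in FLT3 ITD against WT (8.45% of all genes tested) and 1 in Ptprc KO against WT (0.843%). For the double mutant there were 12 of 53 against FLT3 ITD (25.7% of all genes), 16 against Ptprc KO (17.8%) and 10 against WT (7.89%). These lists were chosen with earlier results known, and their counts are descriptions.

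Among the upstream kinases and other STAT genes, 9 of 9 had positive values in each of the 3 double-mutant comparisons, which share libraries. Their medians were 0.42 against FLT3 ITD, 0.47 against Ptprc KO and 0.33 against WT. Of all genes, 52.0%, 54.4% and 56.3% were positive in the same order. Against WT, 2 of 9 were positive for FLT3 ITD and 1 for Ptprc KO, beside 54.5% and 54.9% of all genes. By edgeR 0 of 9 passed. Tyk2, a Janus kinase of interferon and IL-12-type receptors, had 83.5 ± 8.73 CPM in WT, 81.6 ± 4.82 in Ptprc KO, 63.5 ± 18.0 in FLT3 ITD, with 89.1 ± 3.75 for the double mutant. Stat6, which IL-4 activates, had 197 ± 24.6, 168 ± 28.2, 184 ± 55.4 and 247 ± 58.5 CPM in the same order. Stat2, a part of the interferon-activated complex, had 30.9 ± 10.3, 23.2 ± 5.73, 29.9 ± 25.2 and 47.9 ± 13.6 CPM (SD, n = 4 for each value).

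Of the other SOCS genes, 0 of 4 passed by edgeR. Socs5, which is known to restrain IL-4 and EGF receptors, had 17.7 ± 1.34 CPM in WT, 15.0 ± 4.45 in Ptprc KO, 14.1 ± 9.16 in FLT3 ITD, and the double mutant had 28.3 ± 8.8 (SD, n = 4 each), at a log2 fold change of 1.01 (SE 0.35, edgeR adjusted p 0.13) between double mutant and FLT3 ITD. Socs4 gave 0.36 (SE 0.14, edgeR adjusted p 0.149) and Socs6 gave 0.16 (SE 0.09, edgeR adjusted p 0.294) in the same comparison. In that comparison 4 of the 4 genes of this list had positive values, where Socs2 had a negative one, beside 52.0% positive among all genes.

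Among receptors that can signal through STAT5, 13 of 18 had enough counts to test. Epor, the erythropoietin receptor, had 75 counts over the 4 WT libraries and 51 over those of Ptprc KO, against 1 in FLT3 ITD, with 1 for the double mutant as well. Its range in Ptprc KO began at 0, and FLT3 ITD against WT had an edgeR adjusted p of 0.291. Kit, the stem cell factor receptor, had 1.02 ± 0.0451 CPM in WT, 1.6 ± 0.542 in Ptprc KO, 1.57 ± 0.566 in FLT3 ITD, and the double mutant had 0.842 ± 0.461 (SD, n = 4 each), again without passing.

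The other restraints of the pathway had medians between −0.12 and 0.07 on the log2 scale over the 5 comparisons. Pias3, an inhibitor of STAT DNA binding, had 16.7 ± 4.1 CPM in the double mutant against 11.1 ± 1.62 in WT, 10.1 ± 1.64 in Ptprc KO and 10.1 ± 1.26 in FLT3 ITD (SD, n = 4 each). All double-mutant Pias3 libraries, from 12.9 CPM, lay above the highest of the others at 12.7, a pattern that 0.81% of all genes tested showed. Pias3 was named for its low p for any genotype difference, so this separation was partly selected. Its edgeR adjusted p was 0.105 against FLT3 ITD, 0.136 against Ptprc KO and 0.425 against WT. Cblb, a ubiquitin ligase that ends receptor signalling, had 34.8 ± 11.6 CPM in the double mutant against 63.6 ± 3.4 in WT, 73.8 ± 27.4 in Ptprc KO and 64.2 ± 23.9 in FLT3 ITD, with edgeR adjusted p of 0.13 to 0.537.

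Among 15 other known STAT5 targets, 12 had positive values in the double mutant against Ptprc KO and 12 against WT, with medians of 0.85 and 0.73. Against FLT3 ITD 10 did, with a median of 0.5. Of all genes, 54.4%, 56.3% and 52.0% were positive in the same order. The single mutants against WT had 13 positive of 15 for FLT3 ITD (median 0.22) and 7 for Ptprc KO (median −0.07). The shares over all genes there were 54.5% and 54.9%. Ccnd3, a D-type cyclin, had 46.0 ± 11.1 CPM in the double mutant, 27.7 ± 7.19 in WT, 21.5 ± 5.93 in Ptprc KO and 27.6 ± 5.23 in FLT3 ITD (SD, n = 4 each), and its log2 fold change against Ptprc KO was 1.1 (SE 0.24, edgeR adjusted p 0.074). Spry1, an inhibitor of receptor tyrosine kinase signalling, went the other way, with 5.1 ± 4.34 CPM in the double mutant, 13.4 ± 8.27 in WT, 17.3 ± 7.97 in Ptprc KO and 16.7 ± 4.16 in FLT3 ITD, and −1.71 (SE 0.54, edgeR adjusted p 0.115) against FLT3 ITD. Cdkn1a, which encodes the cell cycle inhibitor p21, had 182 ± 30.5 CPM in the double mutant, 111 ± 6.58 in WT, 94.9 ± 32.3 in Ptprc KO and 99.2 ± 70.1 in FLT3 ITD, with an edgeR adjusted p of 0.251 against Ptprc KO.

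Within the 9 genes, 4 pairs had an r of 0.8 or more across the 16 libraries: Socs3 with Pim1 (0.95), Stat5a with Stat5b (0.89), Pim1 with Stat5b (0.84) and Socs3 with Stat5b (0.82). Socs2 went against this group, at −0.81 with Stat5b, −0.73 with Socs3 and −0.67 with Pim1. After genotype means were removed the same values were −0.73, −0.62 and −0.65. Socs2 and Cish, often named together as STAT5 targets, had an r of 0.54. These descriptions cover 36 pairs over libraries that share depth, genotype and, for FLT3 ITD replicates 1 and 3, nearly their whole profile.

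Outside the set, genes with at least 5 CPM on average were ranked by likeness to each of the 9 genes over the 16 libraries. Tcf4 (r = 0.971), Srgn (0.97) and Acod1 (0.968) were nearest to Socs3, and Xylt2 (0.989), Sowahc (0.987) and Atf3 (0.983) to Pim1. Ikzf1 (0.971), Galnt10 (0.969) and Als2cl (0.964) were nearest to Stat5b, and Dennd11 (0.959), Pik3r6 (0.911) and Trim36 (0.9) to Stat5a. Tfpi2 (0.925), Fkbp9 (0.911) and Iscu (0.911) were nearest to Socs2, Pgf (0.913), Trmt12 (0.909) and Xab2 (0.9) to Socs1, and Cry1 (0.902), Rnf2 (0.804) and Ddhd1 (0.804) to Cish. Pim2 came nearest to Arhgdib (0.844), Mrpl23 (0.842) and Gpank1 (0.812), and Pim3 to Csrnp1 (0.748), Zfp777 (0.742) and Siah1a (0.734), the lowest values of the 9. Each is the top of 9502 genes ranked, so high values are what the ranking selects.

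The level of the osteoclast markers went with 6 of the 9 genes across cultures. This relation was not computed for the other genes, so whether 6 of 9 exceeds the share among all genes was not tested. FLT3 ITD replicates 1 and 3 were averaged, which left 15 samples, and 9 relations were tested by 100000 permutations, two-sided. Ptprc KO replicates 2 and 3, the next closest pair (chi-square 13 per gene, then 39.6 for the following pair), stayed as 2 samples. They had the highest osteoclast marker levels (10.74 and 10.61), so the permutation p-values here and below may be too small. Stat5b (r = −0.87, rho = −0.9, adjusted permutation p 0.00018), Stat5a (r = −0.83, rho = −0.86, adjusted permutation p 0.00039), Socs3 (r = −0.8, rho = −0.9, adjusted permutation p 0.00081), Pim1 (r = −0.74, rho = −0.81, adjusted permutation p 0.0038) and Socs1 (r = −0.68, rho = −0.76, adjusted permutation p 0.00726) had less expression where osteoclast markers were higher. Socs2 had more (r = 0.84, rho = 0.81, adjusted permutation p 0.00039). Cish (r = 0.53, adjusted permutation p 0.0562), Pim3 (r = 0.38, adjusted permutation p 0.181) and Pim2 (r = −0.19, unadjusted permutation p 0.51) did not pass.

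Double-mutant replicates 1, 2 and 4 form a cluster of low osteoclast marker level, at 7.31 to 7.66 against 8.59 and above for the rest, so the relations were also computed over the 12 samples above 8, a value set after the data were seen. Among these, r was −0.87 for Stat5b, −0.86 for Socs3, −0.83 for Socs1, −0.79 for Pim1 and −0.78 for Stat5a (adjusted permutation p 0.000945, 0.000945, 0.0025, 0.0025 and 0.00585). Socs2 had r = 0.61 (adjusted permutation p 0.0447) and Cish r = 0.65 (adjusted permutation p 0.0334). These permutations exchange samples of different genotypes. Within genotypes, with each group's mean removed and samples exchanged only inside a genotype (82944 exact permutations, added after the data were seen), r was −0.73 for Socs3, −0.71 for Pim1, −0.77 for Stat5a, −0.68 for Socs1 and −0.78 for Stat5b (adjusted exact permutation p 0.0216, 0.0222, 0.0222, 0.0339 and 0.0352). By that test Socs2, at r = 0.62, and Cish, at 0.47, did not pass (adjusted exact permutation p 0.0587 and 0.257). Leaving out the 2 samples farthest from the median marker level gave −0.93 for Stat5b, −0.88 for Stat5a, −0.88 for Socs3, −0.86 for Pim1, −0.59 for Socs1, 0.76 for Socs2 and 0.23 for Cish.

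**Figure D4:**
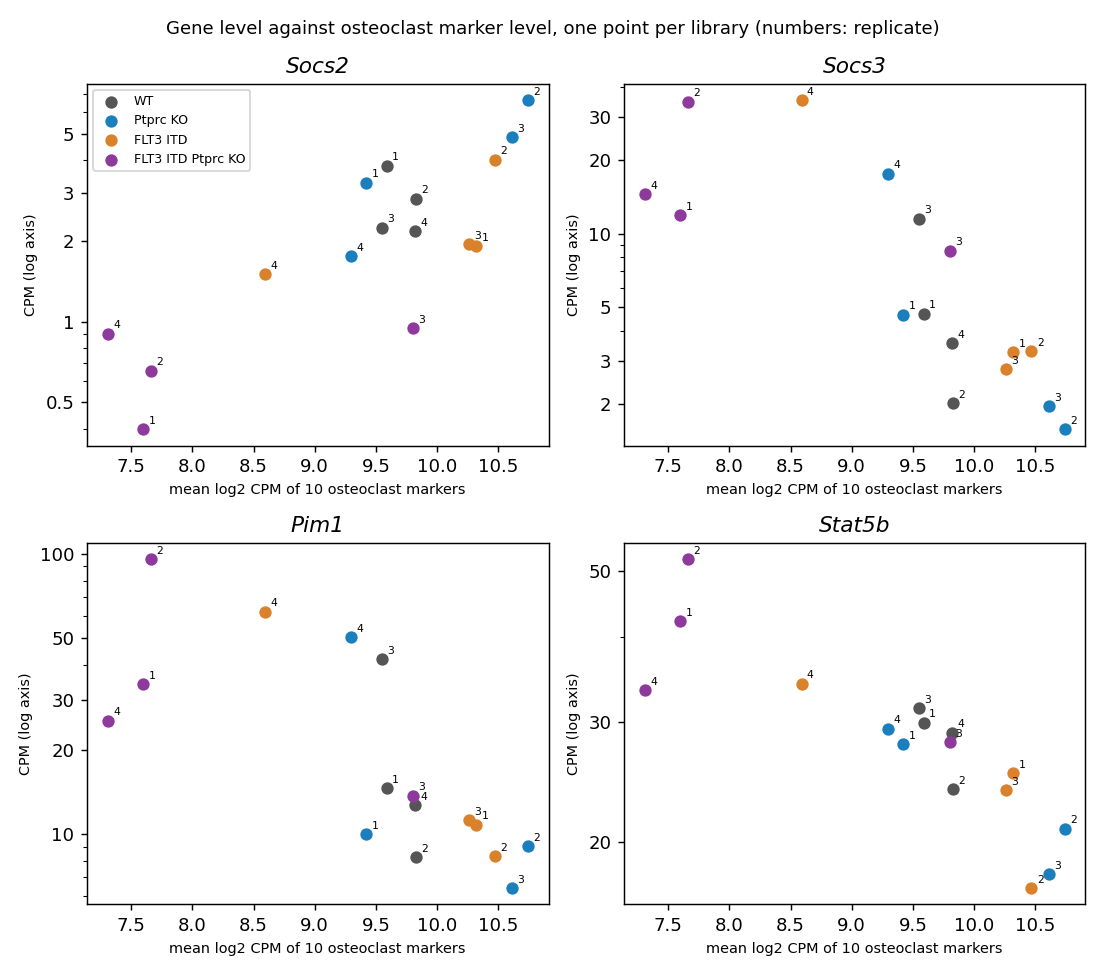
CPM of Socs2, Socs3, Pim1 and Stat5b (vertical, log axis) against the mean log2 CPM of 10 osteoclast markers (horizontal), 1 point per library, coloured by genotype and numbered by replicate. Stat5b, Socs3 and Pim1 run downwards, Socs2 runs upwards, and 3 double-mutant libraries lie apart at 7.31 to 7.66.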

How the data were processed

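The authors deposited raw counts per gene, whole numbers without normalization, and a table of TPM, transcript counts scaled by gene length and library total. The submitters' processing notes name featureCounts 2.0.3, UMI-tools 1.1.1, STAR 2.7.6a, cutadapt 4.2 and bcl2fastq 2.20.0.422 with build GRCm38.p6; settings and strand use are not given in the sources used here. Per the labels' protocols, 500 ng of RNA went into poly(A)-selected, directional libraries with UMI adaptors.

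edgeR 4.0.16 (R 4.3.3) tested the counts, with filterByExpr, TMM and a robust quasi-likelihood fit of 4 group means to 16 libraries (12 residual degrees of freedom). P-values were two-sided and adjusted by Benjamini-Hochberg over 12093 genes, with a threshold of 0.05. CPM use TMM-scaled library sizes, log2 CPM a prior count of 2, and each standard error was derived from the F statistic. TPM gave levels between genes; genes entered limma 3.58.1 on log2(TPM + 1) at a mean of at least 1 TPM. DESeq2 1.42.0 was the other alternative, beside RLE factors, other filters, a replicate block and leaving out each library. Depth limits low genes most, Cish above all, then Pim2 and Socs2. Permutation tests used scipy 1.17.1. Positions came from GENCODE vM21, in which 21894 of 21936 gene IDs were found.

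The 9 genes and all lists were chosen with earlier results of these data known. Named beside the 9 were Ptprc, Flt3, up to 3 genes per pathway list by lowest p for any genotype difference, and the 3 most alike genes per member.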

Additional observations from a re-analysis of the deposited data

Results flagged for a closer look

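In 3 of the 36 sets formed by 9 genes and 4 genotypes, a single library stood apart from its replicates by Dixon's criterion (n = 4 per set). That criterion flags about 1 in 20 sets of independent, normally distributed values. Here it was applied to CPM without a log, and Socs3 and Pim1 rose in the same libraries. The rate of 1 in 20 is therefore no chance baseline for these sets. Socs3 had 35.3 CPM in FLT3 ITD replicate 4, where the next library had 3.29, and the gap was 0.984 of the range. Pim1 had 62.1 CPM in the same library, where the next had 11.2, a gap of 0.946 of the range. Pim1 also had 50.4 CPM in Ptprc KO replicate 4, where the next had 10.0, a gap of 0.919 of the range. The osteoclast marker level of these libraries was the lowest of their genotype, at 8.59 for FLT3 ITD replicate 4 and 9.3 for Ptprc KO replicate 4. The part of that level in the 3 values was not tested.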

How the results depend on the processing

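With edgeR as described, 0 of the 9 genes were called in any comparison. DESeq2 called 1 in the double mutant against FLT3 ITD, against Ptprc KO and against WT, in the interaction and in the test for any difference. RLE factors (Socs2 −2.53, adjusted p 0.0496) and the replicate block (Socs2 −2.36, adjusted p 0.0441) each called 1 against Ptprc KO. Leaving out 1 library gave 0 to 2 calls against FLT3 ITD and 0 to 1 against Ptprc KO; the 2 were Socs2 (−1.84, adjusted p 0.0318) and Stat5b (0.82, adjusted p 0.0383) without FLT3 ITD replicate 4, and without double-mutant replicate 3 it was Socs2 (−1.83, adjusted p 0.039). Socs2 kept its negative sign against all 3 other genotypes in every alternative run.

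Whether the labels' numbers pair the samples could not be settled from correlations, which only describe likeness. With group means removed, same-numbered libraries of different genotypes correlated at −0.633 to 0.851 (12 of 24 pairs over 0.1). Their median was 0.0749, against −0.009 for pairs with different numbers, and 6 of 16 libraries correlated best with their own number. Calls over all genes in the order FLT3 ITD and Ptprc KO against WT, then the double mutant against FLT3 ITD, Ptprc KO and WT, were 5, 4, 1, 11 and 13, and 1 for the interaction and 27 for any difference. DESeq2 gave 64, 12, 982, 340 and 132, then 174 and 486. The replicate block gave 0, 1, 1, 47 and 9, then 0 and 19. A mean count of at least 50 gave 1, 2, 1, 3 and 5, then 0 and 13. Fitting only the groups compared gave 0, 2, 0, 0 and 1, and was not run for the other tests. Without FLT3 ITD replicate 4 the double mutant had 1798 calls against FLT3 ITD and 80 against Ptprc KO, and without its own replicate 3 it had 1315 and 786.

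Of 1359 alternative log2 fold changes, 57 changed sign, in 16 of 54 pairs of gene and comparison, none of them called. For FLT3 ITD against WT these were Pim2 (−0.07 and −0.1 by limma with pseudocounts of 1 and 0.1), Pim1 (−0.34 with the replicate block, −0.26 and −0.29 by limma) and, with replicates 1 and 3 summed and replicate 2 left out, Pim2 (−0.04), Stat5b (0.04) and Stat5a (0.09). For Ptprc KO against WT it was Socs3 (−0.49 with the block, −0.22 and −0.35 by limma). For the double mutant against FLT3 ITD they were Pim2 (0.08 and 0.1 by limma) and, with replicates 1 and 3 summed and replicate 2 left out, Pim2 (0.02) and Socs3 (−0.13). Against WT they were Pim2 (0.01 by limma) and Pim3 (−0.01 with RLE factors and with no filter, −0.02 with only these groups, −0.0 by DESeq2, −0.03 by limma). In the interaction they were Pim2 (−0.01 with replicates 1 and 3 summed) and Socs3 (−0.38 summed with replicate 2 out). Leaving out 1 library gave, for FLT3 ITD against WT, −0.07 to 0.18 (Pim2), −0.25 to 0.02 (Stat5a), −0.81 to 1.7 (Socs3) and −0.94 to 0.96 (Pim1). For Ptprc KO against WT it gave −0.21 to 0.01 (Stat5a), −0.98 to 0.92 (Socs3), −0.53 to 0.18 (Socs1) and −1.19 to 0.68 (Pim1). For the double mutant it gave −0.2 to 0.05 (Pim2) against FLT3 ITD, and −0.11 to 0.08 (Pim2), −0.27 to 0.36 (Cish) and −0.1 to 0.09 (Pim3) against WT. In the interaction it gave −0.09 to 0.23 (Pim2) and −0.3 to 2.24 (Socs3). The cause of these changes was not tested. Limma had no value for Socs2 and Cish, and a mean count of at least 50 left out Cish and Pim2.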
